A study of Mus musculus with 12 samples.

Results

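The effect of trimethylamine N-oxide (TMAO) on gene expression was examined over both glucose levels of the experiment, with all 6 TMAO libraries set against all 6 vehicle libraries. These are all 12 libraries of the series. The cells were MIN6, a mouse insulinoma line that secretes insulin. They were exposed for 18 h to 100 nM TMAO or to vehicle. Low or high glucose was the other factor, and the paper describes the high glucose as a stimulation. The 18 h are the time of the TMAO or vehicle treatment. This gave 4 conditions of 3 libraries (low glucose with vehicle, low glucose with TMAO, high glucose with vehicle, high glucose with TMAO). The series describes them as biological replicates, with no word on how the cultures were kept apart or numbered. All libraries come from 1 tumour-derived line, so no other islet cell type and no circulation were part of the model. The deposited counts summed to 16793162 to 22340542 a library over 54022 genes. The 16222 genes that passed a filter on low counts were tested with edgeR, in a model with glucose and TMAO as separate terms, so that the TMAO term is the mean difference between TMAO and vehicle within a glucose level. Positive log2 values mean a higher level with TMAO throughout.

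TMAO is made from dietary choline and carnitine: gut bacteria release trimethylamine, and flavin monooxygenase 3 in the liver oxidizes it. A β-cell takes up glucose, burns it for ATP, closes its ATP-sensitive potassium channels and lets calcium in, which releases insulin granules. The endoplasmic reticulum (ER) buffers this calcium through the SERCA pumps, which fill it, and the ryanodine and inositol trisphosphate receptors, which empty it. The same calcium signal switches on immediate early genes such as Fos and Egr1 within minutes.

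No gene differed between TMAO and vehicle at an adjusted p under 0.05 when both glucose levels were considered (0 of 16222 genes, 0.0%, edgeR's quasi-likelihood F test, Benjamini-Hochberg adjusted). The lowest adjusted p was 0.99986 in this model. By edgeR it was 0.0944 with the replicate number as a block, 0.0896 with the block within each glucose level and 0.0609 from the 4 condition means. An unadjusted p under 0.05 was found for 588 genes (3.62%), fewer than the 811.1 that uniform p-values would give. The 588 split into 296 on the higher side (1.82%) and 292 on the lower side (1.8%). With the replicate number as a block the count was 744, and with the block within each glucose level it was 879, above 811.1, with 0 genes called in both. The blocked counts were 354 higher and 390 lower, and 416 higher and 463 lower. DESeq2's Wald test called 1 gene, the pseudogene Gm11382, with 420 genes at an unadjusted p under 0.05, and limma on log2 FPKM values called 0, with 677 at that p for a pseudocount of 1 and 663 for a pseudocount of 0.1. For glucose, the model called 1369 genes (8.44%), of which 694 were higher at the high level and 675 lower. The first bin of the p-value plot, from 0 to 0.05, held 588 genes for TMAO and 3302 for glucose. Without replicate 3 of low glucose with TMAO, the count at an unadjusted p under 0.05 became 1216, and 0 genes were called. Without replicate 1 of that condition 1 gene was called, again Gm11382.

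**Figure D1:**
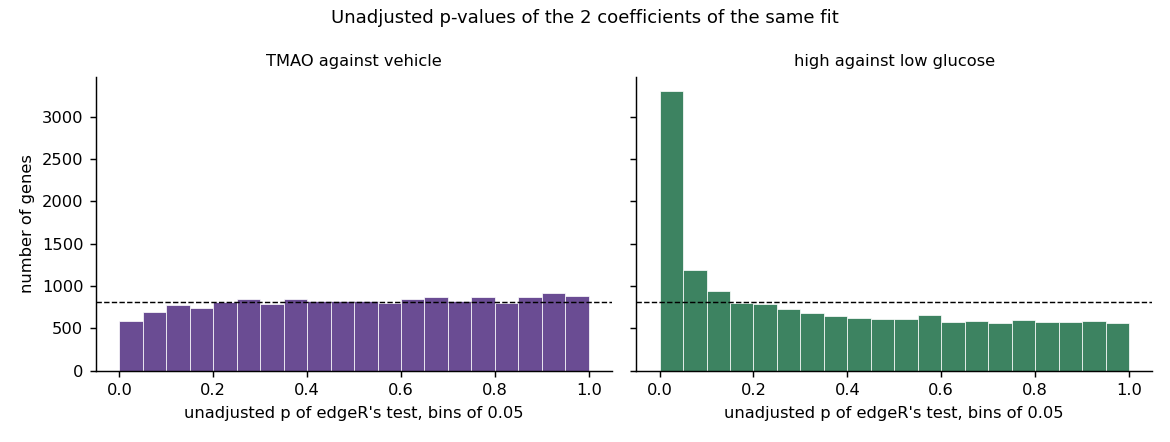
Number of genes (y axis) by unadjusted p in bins of 0.05 (x axis) for the TMAO term (left) and the glucose term (right) of the same edgeR fit on 12 libraries; the dashed line is the level at which all bins would be equal. The lowest bin held 588 genes for TMAO, below the dashed line, and 3302 for glucose; with the replicate number as a block within each glucose level the TMAO count was 879, above that line.

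The spread of the libraries was set beside the treatments in the 12311 genes with a mean of at least 50 normalized counts. Summed over these genes, glucose took 33.8% of the sum of squares of log2 expression and TMAO 6.28%, each on 1 degree of freedom. Libraries within a condition took 53.5% over 8 degrees of freedom, which is 6.69% for each, so that TMAO took no more than a degree of freedom of replicate spread. The interaction of glucose and TMAO took 6.33%. In low glucose, the median root mean square distance between 2 libraries was 0.192 (log2) within a condition and 0.187 between a TMAO and a vehicle library of other replicate number. In high glucose these distances were 0.175 and 0.18. TMAO and vehicle libraries of the same replicate number were 0.155 apart in low glucose, closer than replicates of a condition, and 0.179 apart in high glucose. The spread within a condition in low glucose thus includes differences that go with the replicate number, which the high-glucose distances do not show. The biological coefficient of variation over all 12 libraries was 5.3% in the additive model and 4.16% with the number as a block within each glucose level. Libraries of different glucose level were 0.236 apart.

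Most genes were measured closely enough to bound the size of the mean difference over both glucose levels. A difference at a single glucose level is not bounded by these intervals. The 95% interval of the log2 fold change lay within a 1.2-fold change in either direction for 10318 of the 12311 genes with a mean of at least 50 normalized counts (83.8%), and within 1.5-fold for 12193. Over all 16222 genes tested, 63.6% lay within 1.2-fold and 96.4% within 2-fold. The median half-width of the interval was 0.511 (log2) for the 3911 genes under 50 counts, 0.11 for the 5016 genes from 200 to 1000 counts and 0.0627 for the 597 genes above 5000 counts. As folds, these widths to either side were 1.43 for the lowest group and 1.04 for the highest.

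Across genes, the differences with TMAO in low and in high glucose were unrelated. These comparisons use separate libraries on both sides. Over the 12311 genes, the log2 fold changes in low and in high glucose had a Pearson correlation of -0.00978 and a Spearman correlation of -0.0023, given as a description because genes are not independent replicates. They had the same sign in 5987 genes (48.6%). Their standard deviations across genes were 0.0955 (low) and 0.114 (high), against 0.169 for the glucose term. In 32 genes (0.197%) all 3 TMAO libraries lay above all 3 vehicle libraries at both glucose levels, and in 25 genes (0.154%) they lay below. No gene had a TMAO effect that differed between the glucose levels at an adjusted p under 0.05. The count at an unadjusted p under 0.05 was 545 and the lowest adjusted p of this difference, 0.188, belonged to Egr1.

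**Figure D2:**
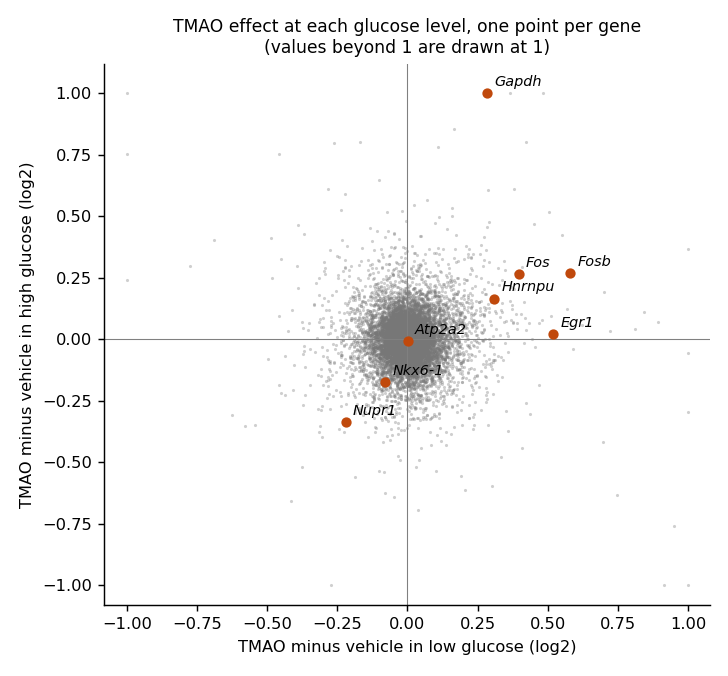
TMAO minus vehicle in high glucose (y axis, log2) against the same in low glucose (x axis, log2), 1 point for each of 12311 genes with a mean of at least 50 normalized counts; values beyond 1 are drawn at 1 and 8 genes are named. The cloud is round, with a Pearson correlation of -0.00978, Egr1 lies to the right near 0 on the y axis and Gapdh at the upper edge.

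The genes ranked first by p are given by their rank and not as changed genes. The 10 with the lowest p on the higher side, among genes with a mean of at least 50 normalized counts, were an unnamed locus of the sequencing provider, Gm13394, Hnrnpu, Tmc7, Fosb, Gm11361, Tbck, Gm10243, Gm26617 and Btg2. Hnrnpu encodes an RNA-binding protein of the nuclear matrix and lies on the minus strand of chromosome 1 (mm10, 178321108 to 178337797). Its normalized counts were 715, 833 and 756 with vehicle and 923, 858 and 1074 with TMAO in low glucose, and 814, 797 and 703 with vehicle and 854, 923 and 816 with TMAO in high glucose. The TMAO libraries lay above the vehicle libraries at both glucose levels, with a log2 fold change of 0.24 (SE 0.057). Its fold change was 0.31 in low and 0.17 in high glucose (log2). Without the filter on low counts, Hnrnpu and the provider's locus were among 6 genes called.

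Tmc7, a transmembrane channel-like gene on the minus strand of chromosome 7 (118535841 to 118584736), had 107 to 119 normalized counts in the low-glucose vehicle libraries and 125 to 151 with TMAO. At high glucose, it had 99.1 to 111 with vehicle and 128 to 162 with TMAO. Its log2 fold change was 0.37 (SE 0.093). Tbck, a TBC-domain protein kinase gene on chromosome 3 (132684144 to 132841688), had a log2 fold change of 0.21 (SE 0.059), again without overlap of the groups at either glucose level. Aimp1 overlaps Tbck on the opposite strand with a mean of 1209 counts against 331.9 for Tbck, and the library kit does not mark strand.

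Several of the loci at the top are not ordinary coding genes. The first by p was an unnamed locus that the provider placed on a patch scaffold of the assembly, with a log2 fold change of 0.51 (SE 0.11), 83.9 to 140.1 normalized counts with vehicle and 123 to 190.1 with TMAO. Gm13394 and Gm10243 are annotated as processed pseudogenes and Gm26617 as a lincRNA, with log2 fold changes of 0.38, 0.26 and 0.31. Gm11361 is annotated as protein coding and had a log2 fold change of 0.24. Gm13394 lies within Cfap77 on the same strand (mean counts 123.1 and 44.33) and Gm10243 overlaps Zfp862-ps on the same strand (254.3 and 64.67). How fragments were shared between such copies cannot be read from the counts. Gm11382, an unprocessed pseudogene on chromosome 13 that fell below the mean count of the ranking rule, was chosen for mention after its values were seen, because DESeq2 called it. It had 27.7 to 33.7 normalized counts with vehicle and 34.1, 44.5 and 107 with TMAO in low glucose, and 19.5 to 28.3 with vehicle and 51.5 to 76.1 with TMAO in high glucose, without overlap at either level.

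On the lower side, the 10 genes were Nupr1, Sh3bp1, Npm3, Cited2, Eif2b2, Zfp319, Fam8a1, Ier5, Arhgap10 and Ccdc117. Nupr1, a small stress-induced chromatin protein gene on the minus strand of chromosome 7 (126623249 to 126630861), had 282, 249 and 288 normalized counts with vehicle and 221, 227 and 255 with TMAO in low glucose. The high-glucose values were 297, 281 and 318 with vehicle and 229.8, 244 and 234 with TMAO. The groups were apart in high glucose and overlapped by 1 library in low glucose. Its log2 fold change was -0.28 (SE 0.065), a level 17.5% lower, with -0.22 in low and -0.34 in high glucose.

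Npm3, a nucleolar chaperone gene on the minus strand of chromosome 19 (45747734 to 45749591), had a mean of 492 ± 20.8 normalized counts (SD, n = 3) with vehicle and 437 ± 37.3 with TMAO in low glucose. In high glucose the means were 468 ± 21.6 and 412 ± 12.3. Cited2, a transcriptional coregulator gene, had 3366 to 3504 with vehicle and 2564 to 3117 with TMAO in low glucose, and 2169 to 2281 and 1971 to 2191 in high glucose, where the groups overlapped. Sh3bp1, a GTPase-activating protein gene, had log2 fold changes of -0.16 in low and -0.22 in high glucose. Eif2b2 encodes a subunit of the exchange factor that recharges the initiation factor eIF2, and its log2 fold change was -0.12 (SE 0.039). The other 5 had log2 fold changes between -0.23 (Arhgap10) and -0.11 (Fam8a1).

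**Figure D3:**
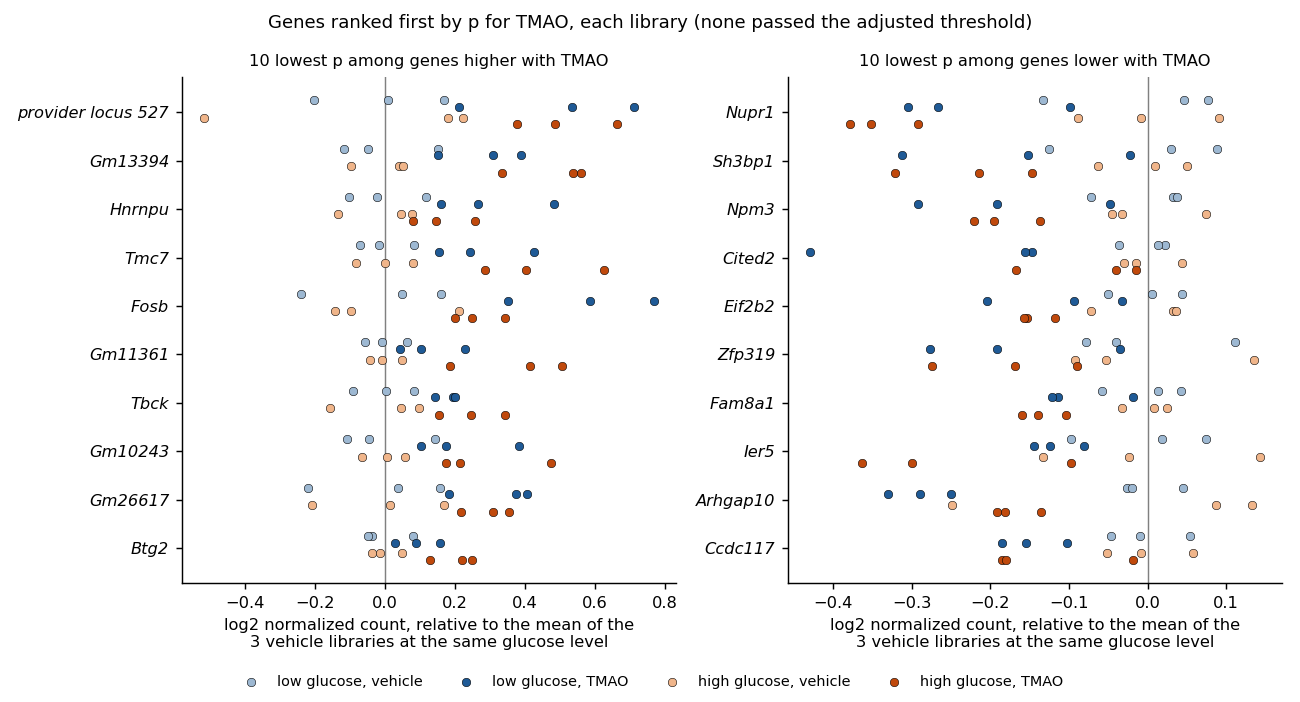
Log2 normalized count of each library relative to the mean of the 3 vehicle libraries at the same glucose level (x axis) for the 10 genes with the lowest p on the higher side (left) and on the lower side (right); each point is 1 library, blue for low and orange for high glucose, pale for vehicle and dark for TMAO. Hnrnpu shows no overlap of TMAO and vehicle points at either glucose level, whereas Nupr1 overlaps by 1 library in low glucose, and none of the 20 genes passed the adjusted threshold in the filtered fit shown (Hnrnpu and the provider's locus did without the filter on low counts).

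Among 27 gene lists, the immediate early and activity-dependent genes held the most members with a low p. Of 53 members tested, 11 were higher and 2 lower at an unadjusted p under 0.05 (against 1.82% and 1.8% of all genes), 0 passed the adjusted threshold, and 39 had a log2 fold change above 0. The median of the list was 0.07 (log2), against 7.68e-05 for all genes. Without each library in turn, the higher members numbered 9 to 17, the upper value being without replicate 3 of high glucose with vehicle, and the median lay between 0.06 and 0.09. In a model without the glucose term 1 member was higher. The list median of the single libraries, relative to the vehicle mean at their glucose level, was 0.115, 0.0666 and 0.0797 with TMAO and 0.0417, -0.00904 and -0.0268 with vehicle in low glucose. For high glucose it was 0.0536, 0.0336 and 0.0314 with TMAO and -0.0126, -0.0292 and 0.0536 with vehicle, so that the groups were apart in low glucose only. In such bulk libraries, a change in the number of responding cells and a change in RNA per cell cannot be told apart.

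Fosb, a subunit of the AP-1 transcription factor encoded on the minus strand of chromosome 7 (19302696 to 19310051), had 45.7, 60.3 and 55.8 normalized counts with vehicle and 80.9, 91.9 and 68.8 with TMAO in low glucose. The high-glucose counts were 193, 187 and 239 with vehicle and 262, 237 and 245 with TMAO. The groups did not overlap in low glucose and overlapped by 1 library in high glucose (log2 fold change 0.38, SE 0.099). Its glucose term was 1.76 (log2). Fos, its partner family member, had 58.6, 45.4 and 44.7 with vehicle and 65.3, 63.9 and 66.8 with TMAO in low glucose, and 302, 354 and 351 against 489, 363 and 362 in high glucose. All TMAO libraries lay above the vehicle libraries of the same glucose level, by a log2 fold change of 0.30 (SE 0.09). Btg2, an antiproliferative cofactor gene, had a log2 fold change of 0.15 (SE 0.044) with 522 to 571 counts with vehicle and 551 to 602 with TMAO in low glucose, and 905 to 959 and 1015 to 1102 in high glucose.

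Egr1, a zinc finger transcription factor gene, had the lowest p of all genes for a difference between the glucose levels, which did not pass the adjusted threshold. It had 317, 347 and 317 normalized counts with vehicle and 450.2, 518 and 437 with TMAO in low glucose. With high glucose the counts were 1993, 1884 and 2026 with vehicle and 2132, 1964 and 1885 with TMAO. The low-glucose groups were apart and the high-glucose groups overlapped. The log2 fold change was 0.52 (SE 0.076) in low and 0.02 (SE 0.058) in high glucose. No adjusted p is given here for the low-glucose value alone, so the adjusted threshold above refers to the difference only. The adjusted p of their difference, -0.50, was 0.188 (edgeR). Dusp6, a phosphatase that switches off ERK, had 34.7 to 46.4 with vehicle and 58.7 to 78.4 with TMAO in low glucose, and 185 to 248 against 215 to 252 in high glucose. The other members with a low p on the higher side were Klf4, Dusp1, Dusp4, Id3, Sik1 and Jund, with log2 fold changes between 0.09 (Dusp4) and 0.20 (Jund). Ier5 and Gadd45g, both growth arrest or stress genes, were the members on the lower side, at -0.18 and -0.13. Apart from Fosb, Btg2 and Ier5, the members named here were chosen after their values were seen.

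Genes of amino acid supply and tRNA charging lay on the lower side. Of 42 members, 7 were lower and 0 higher at an unadjusted p under 0.05 (against 1.8% and 1.82% of all genes), 0 passed the adjusted threshold, 31 had a log2 fold change below 0, and the median was -0.05 (log2). The standard deviation of the list's median between libraries of a condition was 0.0565, about the size of the median itself. The list median of each library, relative to the vehicle mean at its glucose level, was -0.0783, -0.0908 and 0.012 with TMAO and 0.00727, -0.039 and 0.04 with vehicle in low glucose. In high glucose it was -0.0707, -0.115 and 0.0138 with TMAO and -0.028, -0.0385 and 0.0726 with vehicle. At each glucose level, replicates 1 and 2 with TMAO lay below the 3 vehicle libraries and replicate 3 did not, while replicate 3 was also the highest of its 3 libraries with vehicle. The TMAO library lay below the vehicle library of the same number in all 6 pairs. The number of lower members was 3 to 17 when 1 library was left out. It was 17 without replicate 3 of low glucose with TMAO and 13 without replicate 3 of high glucose with TMAO, and 3 without replicate 2 of low glucose with TMAO, replicate 3 of high glucose with vehicle, or replicate 1 or 2 of high glucose with TMAO. It was 17 with the replicate number as a block, 2 without the glucose term, and 3 and 2 by limma on FPKM with a pseudocount of 1 and 0.1.

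The members with a low p were Nupr1, the cationic amino acid transporter genes Slc7a1 and Slc7a3, the valyl-tRNA synthetase gene Vars, the proline synthesis gene Aldh18a1, the alanine transaminase gene Gpt2 and the serine synthesis gene Psat1. All but Nupr1 and Slc7a1 were chosen after their values were seen. Slc7a1 had 3829.8, 3714 and 4091 normalized counts with vehicle and 3465, 3377 and 3766 with TMAO in low glucose, and 4225, 4225 and 4836 against 3951, 3868 and 4494 in high glucose. The groups overlapped at both glucose levels, and the TMAO library was the lower of each of the 6 same-numbered pairs (log2 fold change -0.12, SE 0.043). The other 5 apart from Nupr1 had log2 fold changes between -0.17 (Slc7a3) and -0.08 (Psat1).

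The ER calcium store was a question of the study, and its pumps and channels were measured here with narrow intervals where they were abundant. Of 19 list members tested, 1 was higher and 0 lower at an unadjusted p under 0.05 (against 1.82% and 1.8% of all genes), and the median log2 fold change was 0.00442. Atp2a2 (SERCA2), on the minus strand of chromosome 5 (122453513 to 122502225), had 33379, 33781 and 34266 normalized counts with vehicle and 33853, 34112 and 33592 with TMAO in low glucose. In high glucose it had 35924, 36141 and 36041 with vehicle and 35068, 35819 and 36637 with TMAO. The groups overlapped at both levels, and the log2 fold change was -0.003 (95% interval -0.053 to 0.048). Reads are summed over the gene, so its isoforms were not separated. Atp2a3 (SERCA3) had a log2 fold change of -0.03 (95% interval -0.089 to 0.03), with 0.02 in low and -0.08 in high glucose. By length-scaled abundance the vehicle means were 304 ± 10.6 FPKM for Atp2a2 and 352 ± 14.6 FPKM for Atp2a3 (SD, n = 6), against 0.237 ± 0.0907 FPKM for Atp2a1.

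The release channels were lower in level. Itpr1 had 6.16 ± 0.194 FPKM with vehicle and 6.22 ± 0.293 FPKM with TMAO (SD, n = 6), and Itpr3 2.36 ± 0.18 and 2.42 ± 0.129 FPKM. Itpr2 had 88.3 to 116 normalized counts over the vehicle libraries and 114 to 139.6 over the TMAO libraries, with a log2 fold change of 0.21 (SE 0.096). The exact permutation test of Itpr2 within glucose levels gave a two-sided p = 0.015, where 400 arrangements allow no p under 0.005. Ryr2 had 38.5 to 63.7 normalized counts with vehicle and 49.6 to 69.5 with TMAO (exact permutation p = 0.025). Its log2 fold change by edgeR was 0.19, with a 95% interval from -0.066 to 0.45 that includes 0. Ryr3 had 80.4 to 127 normalized counts with vehicle and 93.6 to 117 with TMAO. Ryr3 shares its locus with Aven on the opposite strand and Atp2a1 with Rabep2. Ryr1 had 0 to 3 counts in every library. This test was run on 27 genes of calcium handling, β-cell function, inflammation and ER stress, and 3 of them (Itpr2, Ryr2 and Rela) had an unadjusted p under 0.05. It was not run on other genes, so no share over all genes can be set beside that count. By edgeR, 2 of the 27 (Itpr2 and Nkx6-1) had an unadjusted p under 0.05, against 3.62% of all genes.

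The β-cell genes were among the best measured. Ins2, the main insulin gene, had 25435 ± 1148 FPKM with vehicle and 25543 ± 1574 FPKM with TMAO (SD, n = 6), with a log2 fold change of 0.0065 (95% interval -0.061 to 0.074). Ins1 had a log2 fold change of 0.02 (-0.054 to 0.10) and Iapp, which encodes amylin, 0.03 (-0.028 to 0.088). Chga, Pcsk1, Ucn3 and Slc2a2, which encode a granule protein, a prohormone convertase, urocortin 3 and the glucose transporter GLUT2, had log2 fold changes between -0.0049 and 0.02. Over the 18 hormone, granin and processing genes tested, 0 had an unadjusted p under 0.05, against 3.62% of all genes. With 18 members, a count of 0 is near that share. All 18 intervals lay within 1.2-fold, against 83.8% of the genes with a mean of at least 50 normalized counts.

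The β-cell transcription factors had 3 of 24 members lower and 0 higher at an unadjusted p under 0.05 (against 1.8% and 1.82% of all genes), and 0 past the adjusted threshold, with a median of -0.00198 (log2). The list median of the single libraries was -0.0632, -0.0412 and -0.0377 with TMAO and 0.0297, -0.0182 and 0.000715 with vehicle in high glucose. For low glucose it was 3.5e-05, 0.0113 and 0.0497 with TMAO and -0.012, -0.00589 and 0.00801 with vehicle. The groups were thus apart in high glucose only. Nkx6-1, a homeodomain factor needed for mature β-cells, had 10964, 9851 and 10270.0 normalized counts with vehicle and 10096, 8813 and 10528 with TMAO in low glucose. In high glucose it had 10625, 9135 and 9854 with vehicle and 8889, 8773 and 8557 with TMAO. The groups were apart in high glucose and overlapped in low glucose. The log2 fold change was -0.13 (SE 0.044, p = 0.0102 before adjustment), with -0.08 in low and -0.18 in high glucose, and the exact permutation p was 0.05. Bach2, a transcriptional repressor gene, was at -0.12 (SE 0.049). Mafa, an activator of the insulin genes, had 14468 to 18721 with vehicle and 13380.5 to 15257 with TMAO in high glucose, with log2 fold changes of -0.0012 in low and -0.24 in high glucose. Pdx1 was at 0.10 in low and -0.03 in high glucose. Sox9 and Neurog3, markers of immature cells, had 0 counts in every library. Neurog3 overlaps Fam241b on the opposite strand (mean count 115.3), and Ndufs3, a core subunit of complex I, was also listed at 0 in every library, so a count of 0 is given here as listed and sets no limit on expression.

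**Figure D4:**
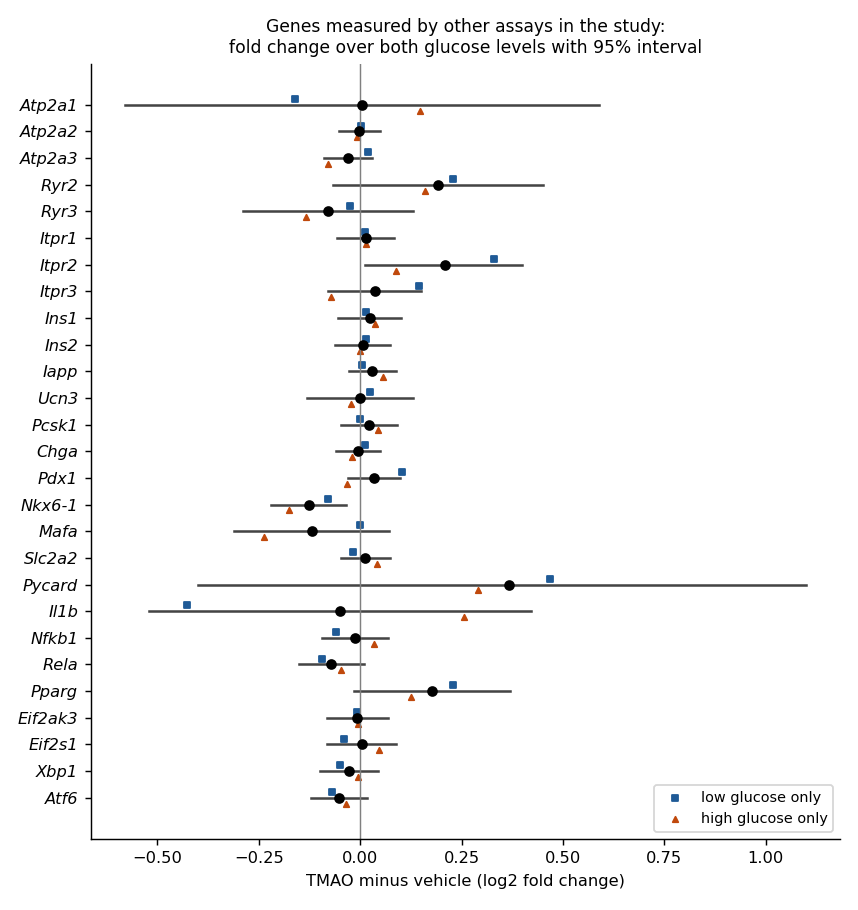
Log2 fold change of TMAO against vehicle over both glucose levels (black points, x axis) with its 95% interval (lines) for 27 genes of calcium handling, β-cell function, inflammation and ER stress, with the values in low (blue squares) and high glucose (orange triangles) alone. Atp2a2 lies at -0.003 with an interval from -0.053 to 0.048, and the interval of Nkx6-1 lies wholly below 0.

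Genes of energy metabolism were read in 3 lists, with 0 members past the adjusted threshold in each. The 77 nuclear oxidative phosphorylation genes had 0 members at an unadjusted p under 0.05 (against 3.62% of all genes) and a median of -0.01 (log2), with 75 intervals within 1.2-fold. Ndufv1 and Atp5k had the lowest p among them, at -0.07 and -0.09. Of the 13 subunits encoded in mitochondrial DNA, 3 were higher and 0 lower at an unadjusted p under 0.05 (against 1.82% and 1.8% of all genes), 0 passed the adjusted threshold, 12 had a log2 fold change above 0, and the median was 0.07. The list median of the single libraries ranged from -0.0678 to 0.0958 with TMAO and -0.0416 to 0.0564 with vehicle in low glucose, and from 0.102 to 0.208 and -0.0839 to 0.0778 in high glucose. The groups were apart in high glucose only. mt-Nd4l and mt-Co3, which encode subunits of complexes I and IV, had log2 fold changes of 0.22 (SE 0.09) and 0.29 (SE 0.12), and each overlaps a neighbouring mitochondrial gene on the same strand. The other member, mt-Co2, was named after its value was seen and was at 0.23. The libraries were selected for poly(A) tails, and these short transcripts were counted at 149 to 289 (mt-Nd4l) and 406 to 814 (mt-Co3) normalized counts.

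The list of 60 glycolysis and tricarboxylic acid cycle genes had 2 members higher and 0 lower at an unadjusted p under 0.05 (against 1.82% and 1.8% of all genes), with a median of 0.01 (log2). The 2 were Mpc1, a subunit of the mitochondrial pyruvate carrier, at 0.16 (SE 0.068), and Gapdh. Gapdh, a glycolytic enzyme often used as a reference gene, had 1924, 2118 and 1292 normalized counts with vehicle and 2793, 3274 and 425 with TMAO in low glucose. In high glucose it had 347, 295 and 271 with vehicle and 1688, 3381 and 2614 with TMAO. It had the largest log2 fold change of all genes with a mean of at least 50 counts, 1.47 (SE 0.60), and its libraries were apart in high glucose but ranged from 425 to 3274 within a single condition in low glucose. Iffo1 overlaps Gapdh on the opposite strand with a mean of 1429 counts. Slc2a1, encoding the glucose transporter GLUT1, was the 1 member of the glucose sensing and channel list (27 tested) with an unadjusted p under 0.05, at -0.18 (SE 0.06).

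The lists on inflammation and stress had 0 members past the adjusted threshold, and their counts at an unadjusted p under 0.05 stand against 1.82% higher and 1.8% lower of all genes. Of 32 inflammasome, NF-kB and cytokine genes tested, 1 was higher and 0 lower at an unadjusted p under 0.05, and the median was -0.00947 (log2). That member was Gsdmd, encoding the pore-forming protein gasdermin D, with 157 to 193 normalized counts with vehicle and 179 to 222 with TMAO (log2 fold change 0.15, SE 0.075). Nlrp3 had 0 to 2 counts, Casp1 0 to 6 and Aim2 0 to 3 in each library, so that no difference was detectable at this depth. Pycard and Il1b were low as well, with intervals from -0.40 to 1.1 and from -0.52 to 0.42 (log2). Rela, a subunit of NF-kB, had a log2 fold change of -0.07 (95% interval -0.15 to 0.0092, exact permutation p = 0.035), and Nfkb1 -0.01. Pparg, encoding a nuclear receptor, was at 0.18 (95% interval -0.016 to 0.37).

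In the unfolded protein response list all 46 members had intervals within 1.2-fold, with 0 higher and 1 lower at that p, Atf6b at -0.09 (SE 0.037). The sensors and effectors Eif2ak3, Eif2s1, Xbp1 and Atf6 lay between -0.05 and 0.0035. Of 47 antioxidant genes, Nqo1 and Sesn2 were lower at an unadjusted p under 0.05, Nqo1 at 4.41 to 14.9 normalized counts only. Of 37 apoptosis and p53 genes, 2 were higher and 0 lower at an unadjusted p under 0.05 (1.82% and 1.8% of all genes), among them Birc2, an inhibitor of apoptosis, at 0.12 (SE 0.042). The heat shock list (31 tested) had 0 members in either direction.

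The remaining lists held at most 2 members each at an unadjusted p under 0.05 in either direction, against 1.82% higher and 1.8% lower of all genes, and 0 past the adjusted threshold. Granule docking and exocytosis (38 tested) had Snap25, a SNARE protein gene, at 0.08 (SE 0.032) and Doc2b, a calcium sensor gene, at -0.15 (SE 0.066). Osmolyte transport (19 tested) had Akr1b8 at 0.41 and the betaine transporter gene Slc6a12 at -0.56, both with at most 61 normalized counts in any library. Choline and methylamine metabolism (20 tested) had Slc44a3 at 0.07 and Pld2 at -0.52. Sterol and fatty acid synthesis (39 tested) had Scd1 at 0.11, the cell cycle (52 tested) Ccnd3 at 0.16, and the circadian clock (20 tested) Per2 at 0.14 and Nr1d1 at 0.10. Among the cell cycle members 12 had a log2 fold change above 0 and 40 below. Their median was -0.0125, with -0.0268 in low and -0.00113 in high glucose. The ribosomal proteins (81 tested) had Rpl37 at -0.08. The disallowed genes (13 tested) and the dedifferentiation markers (4 of 11 tested) had none.

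**Figure D5:**
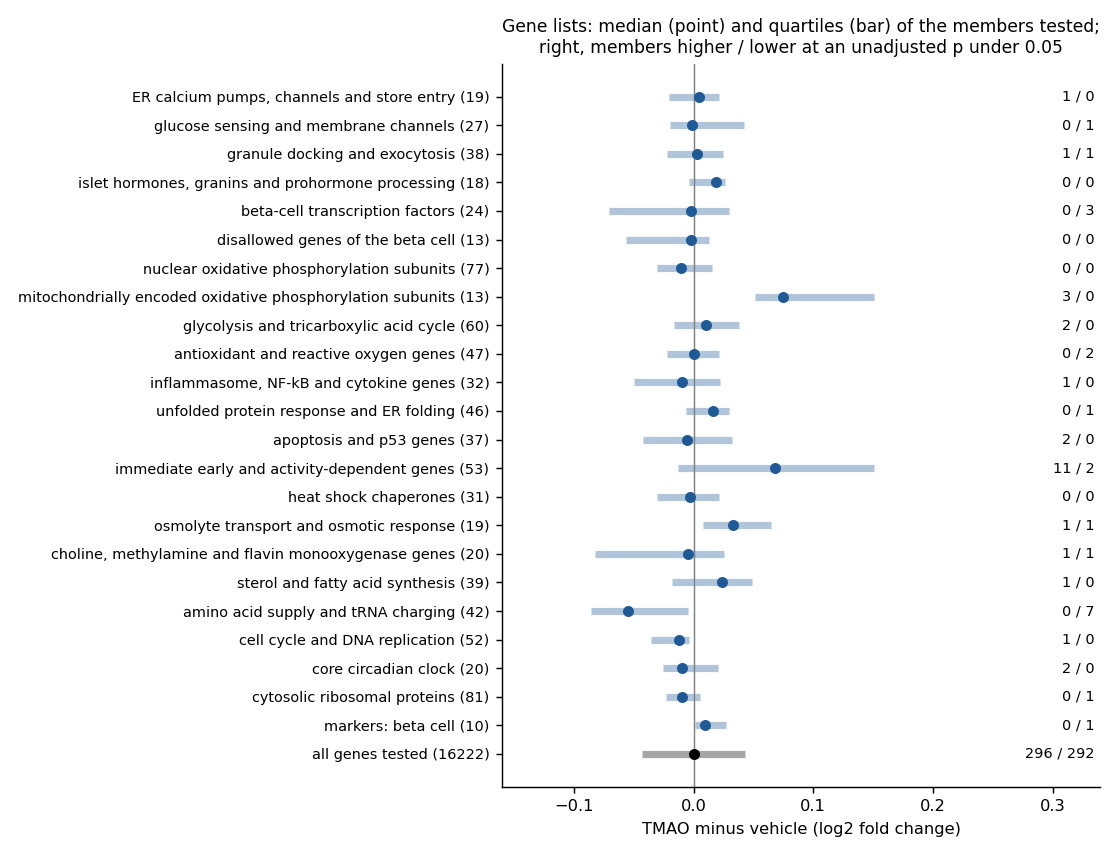
Median (points) and quartiles (bars) of the log2 fold change of TMAO against vehicle (x axis) for the gene lists with at least 10 members tested (number in brackets) and for all genes, with the number of members higher and lower at an unadjusted p under 0.05 on the right. The immediate early list (11 higher, 2 lower) and the amino acid list (0 higher, 7 lower) hold the most, and their medians and that of the mitochondrially encoded list lie farthest from 0.

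Markers were read to check the identity of the cells. All 10 β-cell markers were tested, from 15.5 FPKM for Ucn3 to the insulin genes above. Of the 10 acinar and duct markers 2 passed the filter, Krt7 and Cela1. The duct keratin gene Krt7 had 20 FPKM with vehicle, above the 15.5 FPKM of Ucn3, and Cela1 had 0.877 FPKM. Of the 11 immune, endothelial and stromal markers 2 passed. Ptprc, Adgre1, Cd3e, Pdgfrb and Dcn had 0 counts in every library. These are given as listed, since a count of 0 sets no limit on expression here. Of the other islet endocrine markers, Gcg and Ttr were present, at 216 and 634 FPKM over the 12 libraries, whereas Hhex and Ppy had at most 1 count. No marker of another cell type had an unadjusted p under 0.05 for TMAO, against 3.62% of all genes. Only 5 other islet endocrine, 2 acinar and duct, and 2 immune, endothelial and stromal markers were tested, so this count is near that share.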

How the data were processed

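RNA of 12 MIN6 libraries (4 conditions of 3) was selected by poly(A) tail and sequenced in pairs; low and high glucose were 2.8 and 16.8 mM. The authors deposited raw fragment counts per gene. The submitters' processing notes name HISAT2 2.0.5, featureCounts 1.5.0-p3, DESeq2 1.16.1 and mm10, without saying which step each did. A second deposited table holds FPKM, computed by the authors per gene length and library size. Strand use in counting is not given in the sources used here. The library kit does not mark strand, so overlapping genes can share fragments.

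Counts were tested in R 4.3.3 with edgeR 4.0.16 (filterByExpr by condition, TMM scaling, robust quasi-likelihood F test) with glucose and TMAO as additive terms over 12 libraries; 4 condition means gave each glucose level and their difference. Alternatives were DESeq2 1.42.0 and, for FPKM on a log2 scale with a pseudocount of 1 or 0.1, limma 3.58.1. The script was tested on simulated data. Named genes were the 10 higher and 10 lower with the smallest p at a mean of at least 50 normalized counts, genes the study followed by other assays, and the 2 members with the smallest p of each of 27 lists; exceptions are marked, and some list members are not reported here. The members and lists were chosen with earlier results of these data known. Of 938 listed symbols, 1 was not matched. P-values measure the spread between these libraries, which may be technical.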

Additional observations from a re-analysis of the deposited data

How the results depend on the processing

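The count of genes called for TMAO was 0 in the main model and became 1 by DESeq2's Wald test (Gm11382) and 6 without a filter on low counts (Hnrnpu and the provider's locus among them), where 1204 genes had an unadjusted p under 0.05. Without each library in turn, 0 to 1 genes were called and 469 (without replicate 2 of low glucose with TMAO) to 1216 (without replicate 3) had an unadjusted p under 0.05; the cause was not tested. No label says what a replicate number marks. Deviations of same-numbered TMAO and vehicle libraries correlated at 0.398, 0.135 and 0.284 in low glucose, against -0.351 to 0.0541 for other numbers, and at 0.0678, -0.00425 and 0.137 in high glucose, against -0.164 to 0.103. The numbers thus go with shared deviations in low glucose, and in high glucose not for every pair. With the replicate block 0 genes were called and 744 had an unadjusted p under 0.05, and with the block within glucose 0 and 879.

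Values near 0 changed sign: Atp2a1 was -0.00704 (log2) with 4 group means and Ucn3 -0.000784 without the glucose term. With 1 library left out, the main values ranged from -0.143 to 0.203 for Atp2a1, -0.0103 to 0.00542 for Atp2a2, -0.00402 to 0.0356 for Itpr1, -0.0152 to 0.0324 for Ins2, -0.0523 to 0.0304 for Ucn3, -0.000383 to 0.047 for Pcsk1, -0.0144 to 0.00811 for Chga, -0.00196 to 0.025 for Slc2a2, -0.199 to 0.0729 for Il1b, -0.0374 to 0.00782 for Nfkb1, -0.0161 to 0.00897 for Eif2ak3 and -0.0139 to 0.0459 for Eif2s1. In low glucose they ranged from -0.00733 to 0.0106 for Atp2a2, -0.00374 to 0.0393 for Atp2a3, -0.0689 to 0.0822 for Mafa and -0.143 to 0.77 for Gapdh, and in high glucose from -0.0257 to 0.00976 for Atp2a2 and -0.0289 to 0.0552 for Egr1.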
